A study of Mus musculus with 6 samples.

Results

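The EphA receptors and their ephrin-A ligands were examined in purified mouse retinal ganglion cells (RGCs), the output neurons of the eye whose axons form the optic nerve. The members are the rows of the deposited gene table whose symbol is Epha3, Epha4, Epha5, Epha6, Epha7, Epha8, Efna2, Efna3, Efna4 or Efna5, which gave 10 of 24060 genes, with 6 receptors and 4 ligands. RNA-seq was available for 3 samples of RGCs from E18 embryos (replicates 1, 3 and 4) and 3 samples from P5 pups (replicates 6, 8 and 9), all C57BL/6, with no transgene or treatment named in the labels. The cells had been enriched by immunopanning, in which macrophages are removed with an antibody and RGCs are then captured on dishes coated with antibodies to the surface protein CD90 (Thy1). The study set E18, when RGCs grow axons well, against P5, when they have largely lost this ability. The labels give no position in the retina, so each sample averages over cells from all positions. They also do not say whether the samples came from separate litters, and the p-values then measure only the spread between these samples.

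The libraries held 81213639 to 114512853 counted reads each, of which 47954 to 68320, or 0.0576% to 0.0712%, fell on the 10 members. The column of E18 replicate 1 carries further numbers in its name, and whether it pools preparations is not stated. The summed level of 15 RGC markers was 10777 to 12416 CPM (reads scaled to a common library size with the TMM factors of edgeR) at E18 and 10820 to 11933 CPM at P5, and each of these 15 genes reached 1 CPM in at least 1 sample. The near-equal sums hide changes of single markers. Of the 15, 4 were higher at E18 and 4 lower, against 20.8% and 22.5% of all genes tested. Slc17a6 (log2 fold change -1.40) and Thy1 (-1.16), the capture protein, were lower at E18, and Isl1 (1.10) was higher. The E18 libraries differed in other cell types. The summed level of 12 retinal progenitor markers was 173 CPM in E18 replicate 1, 106 in replicate 3 and 29.8 in replicate 4, against 21.1 to 28.6 at P5, and 6 of these 12 genes were higher at E18 and none lower. The 14 dividing-cell markers summed to 363, 142 and 84.2 CPM in the same E18 replicates, against 68.6 to 84.6 at P5, with 9 of 14 higher and none lower. Of the lists for other cell types, all but that of microglia (1 of 8 tested genes higher, none lower) held genes called in both directions. Some of their sums still did not overlap between the ages. The oligodendrocyte sum was 90.7 to 91.5 CPM at E18 and 54.0 to 73.6 at P5, with 1 of 6 tested genes higher and 2 lower. Its largest part was Mbp (mean 46.0 CPM at E18 and 35.2 at P5), which did not pass. The higher gene was Mog (mean 21.0 CPM at E18 and 8.64 at P5). The microglia sum was 4.66 to 5.18 CPM at E18 and 3.28 to 3.67 at P5. Of 11 Muller glia and astrocyte genes tested, 2 were higher and 2 lower. Of 9 amacrine genes tested, 4 were higher at E18 and 1 lower. Tfap2b, an amacrine factor, had 47.5, 119 and 1.62 CPM in E18 replicates 1, 3 and 4 and 1.02 to 1.55 at P5. Tfap2a, Gad1, Slc32a1 and Chat were also highest in E18 replicates 1 and 3. Other genes of the list were not. Gad2 had 9.48, 11.1 and 4.13 CPM in E18 replicates 1, 3 and 4 and 8.01 to 13.2 at P5. Slc6a9 had 6.74, 6.95 and 7.68 CPM in the same E18 replicates and 7.67 to 9.42 at P5. The amacrine sum (1491 to 1698 CPM at E18, 1789 to 2005 at P5) was mostly Calb2 and Pax6, both also made by RGCs, and its direction was that of Calb2 (log2 fold change -0.70). Of 7 bipolar genes tested, 2 were higher at E18 (Otx2 and Gnb3) and 3 lower, and most of that sum (56.1 to 65.8 CPM at E18, 84.5 to 116 at P5) was Prkca (-0.89). Of 8 endothelial and pericyte genes tested, Kdr was higher at E18 (69.5, 62.9 and 14.1 CPM, against 4.79 to 11.3 at P5) and 3 were lower (Pecam1, Tek and Rgs5). These marker genes were chosen for mention after their values were seen. Markers under 1 CPM in every sample numbered 4 of 9 for bipolar cells, among them Grm6 and Vsx1 with at most 5 reads. They numbered 9 of 11 for microglia, 8 of 12 for photoreceptors, 5 of 9 for endothelial cells and pericytes and 3 of 9 for oligodendrocytes. In bulk samples such as these, fewer cells of a type and less RNA per cell cannot be told apart.

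Eph receptors are receptor tyrosine kinases that bind ephrins on neighbouring cells, and the ephrin-A ligands are held in the membrane by a lipid (GPI) anchor. In the visual system, graded EphA receptors on RGC axons meet graded ephrin-A ligands in the superior colliculus and the lateral geniculate nucleus, and contact mostly repels the growth cone, so that axons from temporal and nasal retina end in order along the target. RGC axons themselves carry ephrin-A ligands, which can mask receptors on the same membrane and can signal backwards into the axon. In the mouse retina, Epha5 and Epha6 are known as receptors graded from temporal to nasal, Epha4 is more even, and Efna2, Efna3 and Efna5 contribute the ligands of the nasal side.

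All 10 members passed the filter on low counts and were among the 16449 genes tested by edgeR's quasi-likelihood test. At an adjusted p under 0.05, 2 members were higher at E18 (Epha3 and Epha6), 3 were lower (Epha5, Epha8 and Efna3) and 5 did not pass. Without E18 replicate 1 the count was 3 members, 1 of them higher at E18. Without P5 replicate 9 the count of higher members was also 1. Calls over all genes fell too, from 7135 to 5110 without E18 replicate 1 and to 5384 without P5 replicate 9. With all samples, the shares of members called are close to the background. Across all genes tested, 43.4% passed, 20.8% of genes being higher at E18 and 22.5% lower, against 20% and 30% of the members. The E18 and P5 values did not overlap for 6 of the 10 members, which adds Efna4, against 56.1% of all genes tested. The median log2 fold change of E18 over P5 was -0.01 for the members and 0.00473 for all genes tested, and single members moved in both directions. Without E18 replicates 1 and 3, the libraries with the most progenitor markers, all 10 members kept their sign. That fit, chosen after the data were seen, had 1 E18 sample left, so no count of calls is read from it. In this text a positive log2 fold change means a higher level at E18.

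**Figure D1:**
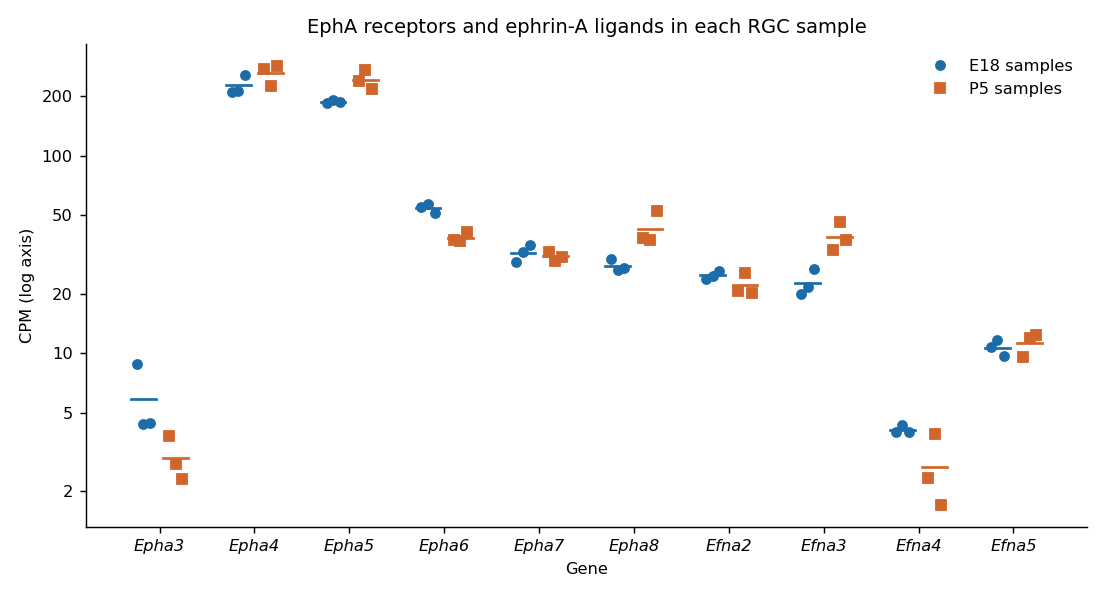
Level of each EphA receptor and ephrin-A ligand gene in CPM on a log axis, with a point for each of the 3 E18 and 3 P5 samples and a horizontal line at each group's mean. The groups do not overlap for Epha3, Epha5, Epha6, Epha8, Efna3 and Efna4, and Epha3 stands out in 1 E18 sample at 8.85 CPM.

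The sequences before the start sites of the 5 members that passed are shown so that the genes higher at E18 can be set beside those lower at E18. Each is the 250 bases upstream of the RefSeq start site in GRCm38.p6, the genome of mm10, read 5′ to 3′ on the gene's strand, which is minus for all 5, and capitals mark GC boxes (GGGCGG on either strand, the letters bound by Sp1-type factors). The regions are chr16:63864176-63864425 for Epha3, chr16:60605532-60605781 for Epha6, chr5:84417383-84417632 for Epha5, chr4:136956817-136957066 for Epha8 and chr3:89322940-89323189 for Efna3. The first pair were higher at E18 and the other 3 lower.
Epha3: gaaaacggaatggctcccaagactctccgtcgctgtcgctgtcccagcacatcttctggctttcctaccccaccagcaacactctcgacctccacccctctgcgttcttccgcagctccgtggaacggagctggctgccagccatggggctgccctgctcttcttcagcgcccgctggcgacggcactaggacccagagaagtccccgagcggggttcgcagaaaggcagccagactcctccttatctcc
Epha6: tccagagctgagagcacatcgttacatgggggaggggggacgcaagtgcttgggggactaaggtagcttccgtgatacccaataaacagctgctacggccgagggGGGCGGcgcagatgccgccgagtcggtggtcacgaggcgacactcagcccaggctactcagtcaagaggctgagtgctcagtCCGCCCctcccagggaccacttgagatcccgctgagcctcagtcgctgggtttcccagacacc
Epha5: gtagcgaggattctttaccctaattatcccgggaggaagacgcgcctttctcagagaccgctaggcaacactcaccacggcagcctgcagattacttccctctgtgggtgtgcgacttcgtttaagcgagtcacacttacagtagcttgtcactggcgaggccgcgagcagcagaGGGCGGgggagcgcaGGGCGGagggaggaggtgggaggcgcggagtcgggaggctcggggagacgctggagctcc
Epha8: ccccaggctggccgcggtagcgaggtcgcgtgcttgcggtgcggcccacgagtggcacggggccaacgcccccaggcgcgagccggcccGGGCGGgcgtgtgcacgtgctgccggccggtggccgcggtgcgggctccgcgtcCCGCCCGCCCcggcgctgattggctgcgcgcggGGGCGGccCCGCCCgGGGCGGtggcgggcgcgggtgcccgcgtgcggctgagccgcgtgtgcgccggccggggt
Efna3: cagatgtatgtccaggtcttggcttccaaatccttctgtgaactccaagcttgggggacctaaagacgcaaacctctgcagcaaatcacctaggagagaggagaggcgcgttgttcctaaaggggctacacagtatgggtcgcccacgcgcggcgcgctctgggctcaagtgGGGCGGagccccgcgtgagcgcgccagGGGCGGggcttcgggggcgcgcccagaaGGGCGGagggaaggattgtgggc

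RefSeq start sites were found for all 10 members, and for the genes with more than 1 entry the site nearest the annotated 5′ end was used. GC boxes, with overlapping matches counted, numbered 0 for Epha3 and 2 for Epha6, against 2 for Epha5, 6 for Epha8 and 3 for Efna3. Over the members, 8 of 10 promoters held a GC box, against 32.7% of 32851 RefSeq promoters of the same length. Each member had 7 to 46 CG dinucleotides, fewest in Efna4 and most in Epha8, against a median of 6 over all promoters. Other motifs were searched on both strands, and none of them contains another. The TATA box TATAAA was in no member and in 12.4% of all promoters. The CCAAT box was in 5 members and in 33.8% of all promoters. The homeodomain core TAATTA was found in Epha5 alone of the members (4.84% of all promoters). The E-box CAGCTG was found in Epha6 alone (13%). The forkhead core TGTTTAC was in no member (3.17%). Nor was the Ets core CCGGAAG, the letters of a family that includes Elk-1 (6.91%). The cyclic AMP element TGACGTCA was likewise in no member (1.55%). These matches describe the letters of this window and nothing further.

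Epha4 and Epha5 were the most abundant receptors by CPM. Epha4, a receptor with broad binding that also accepts ephrin-B ligands, had 212, 214 and 257 CPM in E18 replicates 1, 3 and 4 and 276, 227 and 286 CPM in P5 replicates 6, 8 and 9. The groups overlapped through E18 replicate 4 and P5 replicate 8, and the log2 fold change was -0.21 (95% interval -0.48 to 0.06, adjusted p = 0.182). It passed only without P5 replicate 8 (-0.32, adjusted p = 0.0290, against 0.0290 to 0.422 over the alternatives). Epha5 (ENSMUSG00000029245.16, chromosome 5, 84054761 to 84417382) had 185, 192 and 188 CPM at E18 and 239, 272 and 219 CPM at P5. Its E18 samples lay within a few CPM of each other and all below the P5 samples, and the log2 fold change was -0.37 (SE, standard error, 0.0984; adjusted p = 0.0163), or 1.29-fold lower at E18. The call was lost without E18 replicate 1 (-0.35, adjusted p = 0.0614) and without E18 replicate 3 (-0.38, adjusted p = 0.0564), against 0.00340 to 0.0614 over the alternatives, while the fold change kept its size.

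Epha6 moved the other way from Epha5. Epha6 (ENSMUSG00000055540.15, chromosome 16, 59653483 to 60605531) had 55.1, 57.4 and 51.1 CPM in the E18 samples and 37.6, 37.1 and 41.0 CPM in the P5 samples. All E18 samples were above all P5 samples, with a log2 fold change of 0.50 (SE 0.0934, adjusted p = 0.00361), and the call held in all 12 alternative fits, with adjusted p-values up to 0.0250. Within a library, the ratio of Epha6 to Epha5 reads does not depend on the scaling between libraries. It was 0.298, 0.299 and 0.272 in the E18 samples and 0.158, 0.136 and 0.188 in the P5 samples. Both genes already lay apart in CPM in opposite directions, so this ratio could not overlap and adds no separate support. The ratio of Epha8 to Epha5 reads overlapped, at 0.137 to 0.163 at E18 and 0.138 to 0.240 at P5.

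Among the less abundant receptors, Epha8 (ENSMUSG00000028661.8, chromosome 4, 136929419 to 136956816), which has been studied mainly in the midbrain, had 30.1, 26.3 and 26.9 CPM at E18 and 38.4, 37.6 and 52.4 CPM at P5. Every P5 sample was above every E18 sample, with P5 replicate 9 highest. The log2 fold change was -0.62 (SE 0.143, adjusted p = 0.00869), or 1.54-fold lower at E18, and it was called in each of the 12 alternatives, at -0.45 without P5 replicate 9. Epha7 had 29.0, 32.6 and 35.4 CPM at E18 and 32.6, 29.3 and 30.9 CPM at P5. The groups overlapped, and the 95% interval of the log2 fold change, from -0.18 to 0.31 around 0.06, was narrow and held 0 (adjusted p = 0.661).

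Epha3 (ENSMUSG00000052504.7, chromosome 16, 63543534 to 63864175), the lowest receptor among the members, had 734, 491 and 402 reads in the E18 samples and 337, 272 and 217 in the P5 samples. In CPM these were 8.85, 4.38 and 4.44 at E18 and 3.80, 2.76 and 2.31 at P5. The groups did not overlap, but E18 replicate 1 lay far above the rest, and E18 replicates 3 and 4 lay within 1 CPM of the highest P5 sample. The log2 fold change was 0.99 (SE 0.317, adjusted p = 0.0332). It was 0.58 without E18 replicate 1 (adjusted p = 0.117), and the call was also lost without P5 replicate 8 (0.93, adjusted p = 0.0801) and P5 replicate 9 (0.84, adjusted p = 0.104), against 0.00550 to 0.117 over the alternatives. E18 replicate 1 is also the library with the highest sums of progenitor and dividing-cell markers (6 of 12 and 9 of 14 higher at E18), whose part in the Epha3 result was not tested. Without both E18 replicates 1 and 3, an alternative chosen after the data were seen, the log2 fold change was 0.60 against the 3 P5 samples. With 1 E18 sample left, no test is read from that fit.

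**Figure D2:**
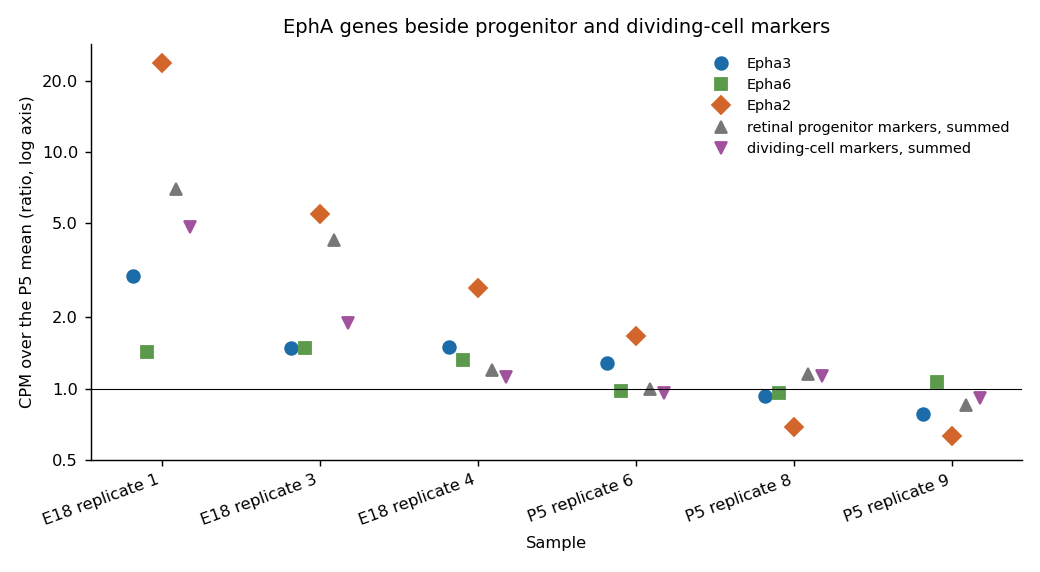
Level of Epha3, Epha6 and Epha2 and summed level of 12 progenitor and 14 dividing-cell markers in each sample, each divided by its own mean over the 3 P5 samples, on a log axis. Epha2, Epha3 and the markers are highest in E18 replicate 1, whereas Epha6 lies close together in the 3 E18 samples, at 55.1, 57.4 and 51.1 CPM.

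Of the ligands, Efna3 was the gene that passed the test. Efna3 (ENSMUSG00000028039.11, chromosome 3, 89313899 to 89322965) had 20.1, 21.7 and 26.8 CPM at E18 and 33.5, 46.3 and 37.4 CPM at P5. All P5 samples were above all E18 samples, with a log2 fold change of -0.77 (SE 0.154, adjusted p = 0.00480), or 1.71-fold lower at E18, and the call held in all 12 alternatives (-0.90 to -0.65 when a sample was left out). An annotated antisense gene shares 14.6% of the Efna3 exon bases. Whether reads were counted by strand is not stated, and reads of that gene could be included.

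Efna2, a ligand of the nasal retina and the posterior colliculus, had 23.7, 24.7 and 26.3 CPM at E18 and 20.7, 25.4 and 20.2 CPM at P5. P5 replicate 8 lay among the E18 samples, and the log2 fold change was 0.17 (95% interval -0.10 to 0.44, adjusted p = 0.278). Without P5 replicate 8 it was 0.26 and passed (adjusted p = 0.0319, against 0.0319 to 0.540 over the alternatives). Efna5, which shares that role, had 10.8, 11.6 and 9.67 CPM at E18 and 9.60, 11.9 and 12.4 CPM at P5. Its groups overlapped, with a log2 fold change of -0.08 (95% interval -0.41 to 0.25, adjusted p = 0.682).

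Efna4 was the ligand with the fewest reads among the members, 330, 485 and 364 at E18 and 208, 386 and 161 at P5. Its level was 3.98, 4.33 and 4.02 CPM at E18 and 2.35, 3.92 and 1.71 CPM at P5. The E18 samples were close together and above the P5 samples, P5 replicate 8 by a narrow margin. The log2 fold change of 0.63 (95% interval -0.03 to 1.29) did not pass (adjusted p = 0.112). Without P5 replicate 8 it was 1.00 (adjusted p = 0.00640, against 0.00640 to 0.272 over the alternatives), so this library sets the result for Efna4. An antisense gene shares 10.5% of its exon bases. Efna1, Efna3 and Efna4 all lie on the minus strand of chromosome 3 between 89271733 and 89338028, and their log2 fold changes were 0.06, -0.77 and 0.63.

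Levels of different genes were compared as CPM per kb of exon. Among the receptors at E18, the order was Epha4 at 35.9 ± 4.03 CPM per kb, Epha5 at 25.7 ± 0.463, Epha6 at 13.9 ± 0.800, Epha8 at 5.896 ± 0.428, Epha7 at 4.27 ± 0.424 and Epha3 at 1.04 ± 0.453 (SD, n = 3). No neighbours in this order overlapped at E18. At P5 the order was the same, but Epha4 (41.6 ± 4.95 CPM per kb) overlapped Epha5 (33.2 ± 3.71), and Epha6 (9.82 ± 0.534) overlapped Epha8 (9.08 ± 1.76, SD, n = 3). Epha4 and Epha5 together made up 69.5% to 77.1% of the summed EphA level of a sample. The share of Epha6 was 16.6%, 17.1% and 14.4% in the E18 samples and 9.68%, 9.96% and 10.3% in the P5 samples, without overlap.

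The order of the ligands changed between the ages. At E18 Efna2 (11.7 ± 0.601 CPM per kb) and Efna3 (9.67 ± 1.48) overlapped, and Efna5 (2.65 ± 0.245) overlapped Efna4 (2.57 ± 0.119, SD, n = 3). At P5 Efna3 was first (16.5 ± 2.77 CPM per kb) and did not overlap Efna2 (10.4 ± 1.36), while Efna5 (2.81 ± 0.373) still overlapped Efna4 (1.66 ± 0.711, SD, n = 3). Efna3 held 34.3% to 39.7% of the summed ephrin-A level at E18 and 51.1% to 53.7% at P5, and Efna2 held 43.1% to 44.9% and 32.2% to 35.0%. The ratio of Efna3 to Efna2 reads within a library was 0.847, 0.878 and 1.02 in the E18 samples and 1.62, 1.82 and 1.85 in the P5 samples. That of Efna5 to Efna2 overlapped, at 0.368 to 0.472 at E18 and 0.464 to 0.614 at P5.

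Summed over the 6 receptors, the EphA level was 84.5, 85.2 and 90.4 CPM per kb at E18 and 98.9, 94.9 and 101 CPM per kb at P5, without overlap. The ephrin-A sum was 24.8, 26.4 and 28.6 CPM per kb at E18 and 27.7, 36.9 and 29.5 at P5, with overlap. The ratio of the receptor sum to the ligand sum was 3.41, 3.23 and 3.16 at E18 and 3.57, 2.57 and 3.43 at P5, where P5 replicate 8 was lowest and the other P5 samples were above all E18 samples. No direction between the ages can be read from this ratio.

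**Figure D3:**
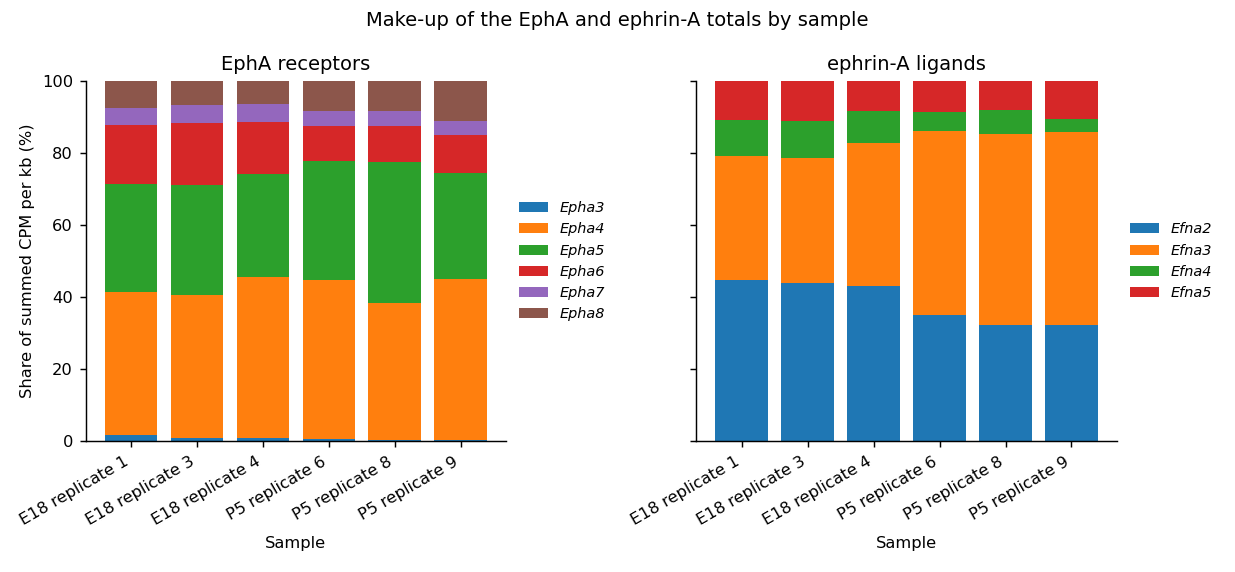
Share of each gene in the summed CPM per kb of the 6 EphA receptors (left) and of the 4 ephrin-A ligands (right), as stacked bars for each sample. Epha6 narrows from 14.4% to 17.1% at E18 to 9.68% to 10.3% at P5, and Efna3 widens from 34.3% to 39.7% to 51.1% to 53.7%.

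The remaining genes of the class, Epha1, Epha2, Epha10 and Efna1, were low apart from Epha10. Epha10, a receptor without kinase activity, had 22.4, 21.7 and 23.4 CPM at E18 and 33.2, 27.8 and 35.9 CPM at P5, for a log2 fold change of -0.52 (SE 0.118, adjusted p = 0.00818). Epha1 had 2.21 to 2.34 CPM at E18 and 0.840 to 1.05 at P5 (log2 fold change 1.25, SE 0.211, adjusted p = 0.00235). Both passed in all 12 alternatives. Epha2, a receptor of epithelial and dividing cells, had 468, 144 and 57 reads at E18 and 35, 16 and 14 at P5, or 5.64, 1.28 and 0.630 CPM against 0.395, 0.163 and 0.149. The E18 samples followed the order of the progenitor marker sums (173, 106 and 29.8 CPM), and the log2 fold change of 3.42 (SE 0.816, adjusted p = 0.0104) was 2.04 without E18 replicate 1. The part of progenitor cells in this difference was not tested. Efna1 had 1.86 to 2.65 CPM at E18 and 1.89 to 2.62 at P5, with an adjusted p of 0.852.

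The EphB receptors and ephrin-B ligands, which order axons along the other axis of the retina and steer them at the midline, offer a comparison. Of the 5 receptors of this class, Ephb2, Ephb3 and Ephb6 were higher at E18 and Ephb4 was lower, and none of the 3 ephrin-B genes passed. Ephb2 had 162, 168 and 158 CPM at E18 and 91.6, 108 and 92.3 at P5 (log2 fold change 0.74, SE 0.0939, adjusted p = 0.000721). The calls of Ephb2, Ephb4 and Ephb6 held in all 12 alternatives, whereas that of Ephb3 (0.57, adjusted p = 0.0237) was lost without E18 replicate 1, E18 replicate 4, P5 replicate 6 or P5 replicate 9, with adjusted p-values up to 0.0934. Of the 8 genes, 37.5% were higher at E18 and 12.5% lower, against 20.8% and 22.5% of all genes tested. Their median log2 fold change was 0.07. Whether the EphA and EphB classes differed in their change was not tested.

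**Figure D4:**
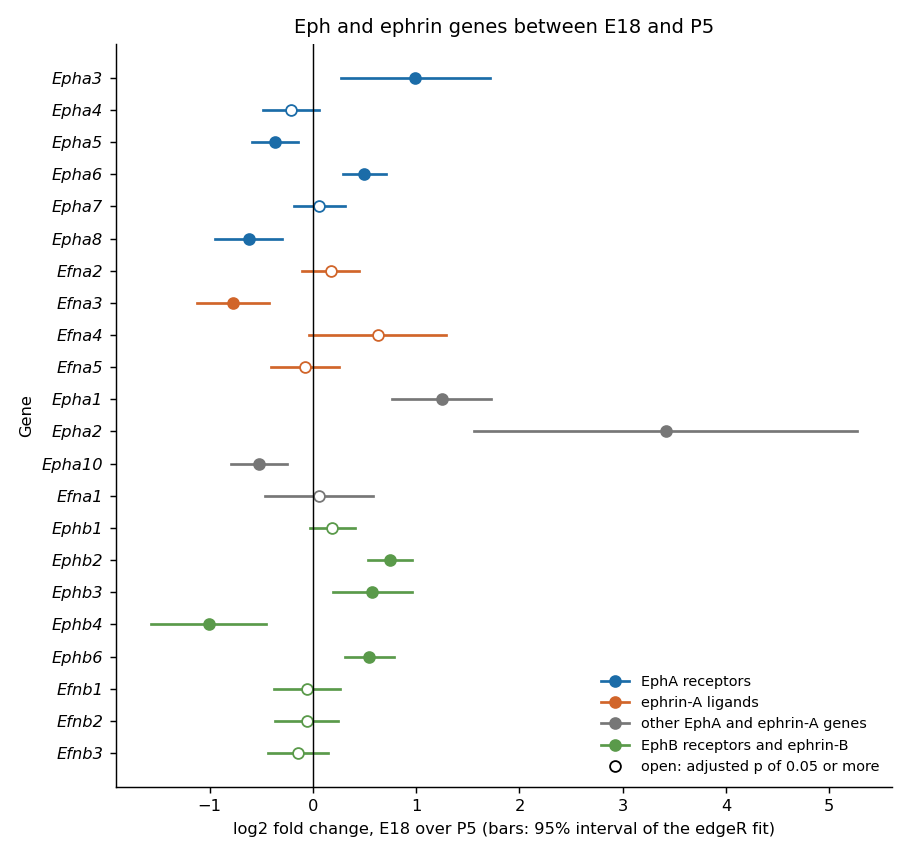
log2 fold change of E18 over P5 for the EphA, ephrin-A, EphB and ephrin-B genes, with the 95% interval of the edgeR fit as a bar, and filled points for an adjusted p under 0.05. Among the 10 members, Epha3 (0.99), Epha6 (0.50), Epha8 (-0.62), Epha5 (-0.37) and Efna3 (-0.77) have intervals that do not reach 0. Among the other genes shown, the same holds for Epha1, Epha2, Epha10, Ephb2, Ephb3, Ephb4 and Ephb6.

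Proteins that carry the EphA signal inside the axon were listed as 30 genes of forward signalling, of which 10 were higher at E18, 3 lower and 17 did not pass. The higher and lower genes were 33.3% and 10% of the list, against 20.8% and 22.5% of all genes tested. The median log2 fold change was 0.12. Vav3 and Vav2, exchange factors that are recruited by active Eph receptors, had log2 fold changes of 1.03 and 0.64 (adjusted p = 0.00201 and 0.00262), and Vav3 had 124, 166 and 101 CPM at E18 against 63.5, 68.6 and 59.5 at P5. Anks1, an adaptor that binds EphA receptors, rose to a like extent at E18 (0.65, adjusted p = 0.00154). Ngef, the exchange factor ephexin that links EphA receptors to growth cone collapse, was lower at E18, with 14.1, 12.6 and 16.6 CPM against 21.1, 25.9 and 29.2 at P5 (-0.82, SE 0.154, adjusted p = 0.00377). These 4 genes passed in each alternative. The other genes that were lower, Yes1 (-0.45, adjusted p = 0.0202) and Cdc42 (-0.27, adjusted p = 0.0381), lost their call without E18 replicate 1, E18 replicate 3 or P5 replicate 6, and Cdc42 also without E18 replicate 4 and without the filter on low counts. The count for the list was 6 without E18 replicate 3 or P5 replicate 6 and 8 without E18 replicate 4, against 13 with all samples. Calls over all genes fell as well, from 7135 to 4575 without E18 replicate 3, 5589 without P5 replicate 6 and 5861 without E18 replicate 4. Whether the list depends on particular libraries beyond the loss of a sample was not tested. Chn1, the chimaerin that acts below Epha4, had 203 to 239 CPM at E18 and 216 to 298 at P5 (adjusted p = 0.191), and is named outside the rule for naming genes.

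Of 10 genes of phosphatases and proteases that end Eph signalling, 4 were higher at E18 and 2 lower. That was 40% and 20%, against 20.8% and 22.5% of all genes tested. Adam10, the protease that cuts ephrin-A ligands from the membrane when they bind, had 110, 127 and 109 CPM at E18 and 85.1, 86.8 and 72.1 at P5 (log2 fold change 0.51, SE 0.107, adjusted p = 0.00609). The phosphatase genes Ptpn1 (0.59) and Ptprf (0.44) were also higher, and Psen2, a subunit of gamma-secretase, was lower (-0.54). These 4 calls held in all 12 alternatives, whereas Acp1, a small phosphatase (-0.31, adjusted p = 0.0412), lost its call in 5 of them, without E18 replicate 1, 3 or 4, without P5 replicate 9 and without the filter on low counts.

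Membrane receptors that can act together with ephrin-A ligands or Eph receptors were 6 genes, of which 2 were higher at E18 and 3 lower, with a median log2 fold change of -0.27. The count fell to 2 without E18 replicate 3 and to 3 without E18 replicate 1, P5 replicate 6 or P5 replicate 9. In these fits, in the same order, 4575, 5110, 5589 and 5384 of all genes passed, against 7135 with all samples. With all samples, 33.3% of these 6 genes were higher at E18 and 50% lower, against 20.8% and 22.5% of all genes tested. Ngfr, the low-affinity neurotrophin receptor that serves as a partner of ephrin-A in reverse signalling, had 52.5, 54.3 and 66.1 CPM at E18 and 17.3 to 18.5 CPM at P5. It was 3.19-fold higher at E18 (log2 fold change 1.68, SE 0.116, adjusted p = 9.07e-05), with a call in all 12 alternatives. Fgfr2, a fibroblast growth factor receptor, had 1.82 to 2.44 CPM at E18 and 8.34 to 11.2 CPM at P5 (-2.23, SE 0.190, adjusted p = 0.000166). Ntrk2, the receptor of brain-derived neurotrophic factor, was lower at E18 (-0.38, adjusted p = 0.0168), a call lost without E18 replicate 1 or 3. Ntrk3 (-0.30, adjusted p = 0.0393) lost its call without E18 replicate 1, 3 or 4, P5 replicate 6 or 9, with upper-quartile factors and without the filter on low counts. Gfra1 had 11.5, 15.9 and 3.02 CPM at E18 and 1.74, 3.55 and 3.02 CPM at P5, and its groups overlapped although it passed (1.88, adjusted p = 0.0206). That call was lost without E18 replicate 3 (1.39), P5 replicate 6 or P5 replicate 9. Ret, the receptor that signals with Gfra1, did not pass (adjusted p = 0.133).

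Transcription factors and enzymes that mark position across the retina were listed as 13 genes, of which 11 had enough reads to be tested, 3 were higher at E18 and none was lower (5 passed without E18 replicate 1). The 3 were 27.3% of the 11, and of all genes tested 20.8% were higher at E18 and 22.5% lower. Foxd1, a factor of the temporal retina, was low at both ages, with 1.44 to 2.87 CPM at E18 and 0.508, 0.762 and 0.234 at P5 (log2 fold change 1.94, SE 0.450, adjusted p = 0.00909). Tbx3, a factor of the dorsal retina (1.45, adjusted p = 0.000474), and Isl2, which marks RGCs that project across the midline (0.90, adjusted p = 0.00314), were higher at E18, and the calls of Foxd1, Tbx3 and Isl2 held in all 12 alternatives. The ventral factor Vax2 had 18.6 to 21.9 CPM at E18 and 19.3 to 21.9 at P5 (-0.03, adjusted p = 0.841).

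**Figure D5:**
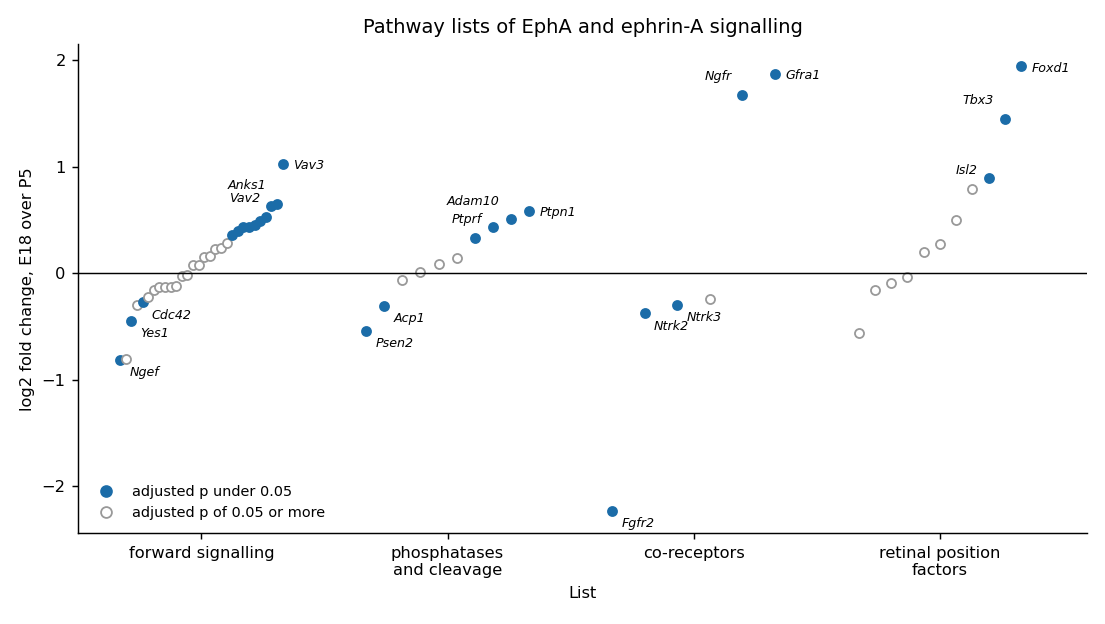
log2 fold change of E18 over P5 for each tested gene of the 4 pathway lists, ordered by value within a list, with filled points for an adjusted p under 0.05 and names for the genes with the largest changes. Forward signalling spans -0.82 (Ngef) to 1.03 (Vav3), and the co-receptors span -2.23 (Fgfr2) to 1.88 (Gfra1).

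The genes whose pattern over the 6 samples was most like a member's were sought among the 9717 tested genes whose mean reached 10 CPM, by the root mean square difference of log2(CPM + 1) after centring each gene. For Epha3, the called member with the largest rise at E18, they were Egr1 (0.14), Ptprz1 (0.17), Myl12a (0.18), Nuak2 (0.18) and Ckap2 (0.21). Epha3 averaged 5.89 CPM at E18 and 2.96 at P5, below the compared genes, so the added 1 shrinks its changes more than theirs. Their log2 fold changes ran from 0.67 (Ckap2) to 1.00 (Ptprz1), against 0.99 for Epha3. The call of Epha3 was itself lost without E18 replicate 1. Egr1, an immediate-early gene, had 20.6, 12.9 and 12.8 CPM at E18 and 10.2, 8.52 and 8.86 at P5, so that it too was highest in E18 replicate 1. For Efna3, the member with the largest fall, they were Otud7a (0.073), Pcdhac2 (0.10), Slc35f2 (0.11), Larp6 (0.11) and Dbndd2 (0.11). Pcdhac2, a clustered protocadherin, had 48.2, 47.6 and 49.7 CPM at E18 and 72.2, 97.3 and 80.0 at P5, with P5 replicate 8 highest as for Efna3. These likenesses are over 6 samples that share the contrast of age.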

How the data were processed

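RNA of RGCs from 3 E18 and 3 P5 samples was sequenced by the authors in paired-end mode following RiboZero treatment (the labels name polyA RNA), aligned to mm10 with STAR 2.4.0 and counted on RefSeq genes with HT-seq 0.6.1; the strand setting is not stated. The authors deposited raw read counts, which were used here. They also deposited normalized counts (a signal scaled for library size), log2 fold changes, p-values with false discovery rates and a rank (another score), none of which was used. Groups and replicate numbers come from the sample titles. Replicates differed by more than sampling noise, with a chi-square per degree of freedom of 30.5 to 49.0 between E18 samples and 71.9 to 141 between P5 samples. The highest value was between P5 replicates 8 and 9.

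Counts were normalized by TMM, and all genes passing filterByExpr were tested in edgeR 4.0.16 (R 4.3.3; glmQLFit and glmQLFTest), with Benjamini-Hochberg adjustment. The fit was tested on simulated data. Depth was 81213639 to 114512853 counted reads per sample, and the spread between samples sets the precision. Exon lengths and coordinates are those of GENCODE M21 transcripts with a RefSeq accession. The alternatives were DESeq2 1.42.0, the likelihood ratio test, RLE and upper-quartile factors, other filters and leaving out each sample. The members and lists were chosen with earlier results of these data known. Named were the members, the other Eph and ephrin genes, of each pathway list the 3 largest rises and falls past the threshold, and the 5 genes nearest in pattern. Other genes were named after their values were seen.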

Additional observations from a re-analysis of the deposited data

How the results depend on the processing

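Under DESeq2, the likelihood ratio test, other size factors and other filters, 5 members passed each time, 2 higher and 3 lower at E18, and between 6331 and 7634 genes passed in all. With 1 sample left out at a time, 3 to 7 members passed, 1 to 3 of them higher at E18. Over the same fits, 4575 to 8796 genes passed (2137 to 4135 higher and 2438 to 4661 lower), with 6 to 18 of the forward signalling genes, 2 to 6 of the co-receptors and 3 to 5 of the position factors. The lowest count of members was reached without E18 replicate 1. The highest count of members (7) and of genes (8796) was reached without P5 replicate 8, where Epha4, Efna2 and Efna4 gained their calls. Without E18 replicates 1 and 3 together, chosen after the data were seen, every member kept its sign. That fit assumes that the lone E18 sample varies like the P5 samples, and no count of calls is read from it. Values near 0 changed sign when a sample was left out. Epha7 ranged from -0.0054 to 0.14, Efna1 from -0.058 to 0.20, Efnb1 from -0.20 to 0.018 and Efnb2 from -0.16 to 0.041. The cause was not tested. Of the members' values under these alternatives, 111 kept their direction and side of the threshold, 5 lost and 3 gained a call, and 1 changed sign. Dropping the length division or the TMM factors moved the receptor and ligand sums by less than the spread between samples. No paired analysis was possible because E18 and P5 share no replicate number.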
